A study of Drosophila melanogaster with 3 samples.

Results

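Upstream peaks at one-direction promoters are peaks called for GFP-tagged Lozenge (lz) whose summit lies 1 to 500 bp upstream of the nearest transcription start site. Their promoters do not have starts of protein-coding genes on both strands. They were chosen by position alone: a summit was kept when its nearest start was downstream of it and within 500 bp, and when it did not lie within 500 bp of starts of protein-coding genes on both strands. The rule kept 1826 of the 8048 peaks of the set that the authors thresholded by reproducibility between replicates (22.7%, 95% Wilson interval 21.8 to 23.6%). That set equals the 8048 calls of highest signal in the authors' list from pooled replicates, so a single peak in it need not recur in each replicate. These 1826 peaks belonged to the starts of 1610 genes, and 42 of them shared their called interval with another thresholded peak. The study immunoprecipitated chromatin with an antibody to GFP from a transgenic Drosophila melanogaster line that stably carries lz fused to GFP at its C-terminus. The material was whole white prepupae, the first stage of metamorphosis, of pooled males and females and unstated age, and the chromatin was sonicated. All 3 biological replicates, each from its own biosample, belong to this single group, and no control sample was analysed here. In whole animals, strong binding in few cells and weak binding in many cells cannot be told apart.

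A promoter is the stretch of DNA around a transcription start where RNA polymerase II and its general factors assemble, and in flies the bases just upstream carry short elements read by promoter-binding proteins such as Dref and M1BP. Where genes on opposite strands start close together, a single upstream region serves both, so peaks there cannot be assigned to either gene. A peak upstream of a one-direction start is assigned here to the gene of its nearest start, which need not be protein-coding. Lozenge is one of the Runx family of transcription factors and is known for its part in the eye, where it patterns photoreceptors and cone cells, and in the blood, where it is needed for crystal cells. Runx proteins bind a short recognition sequence with their Runt domain.

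The sequences at the summits were AT-rich. The windows of 3 of the 10 strongest peaks are shown for that reason, each reaching 50 bp to either side of the summit and written 5′ to 3′ along the gene, with coordinates on dm6 and the letters read from the RefSeq release 6 genome. They had 28.7%, 24.8% and 32.7% G and C.
CG14100 (minus strand, chr3L:19590564-19590664): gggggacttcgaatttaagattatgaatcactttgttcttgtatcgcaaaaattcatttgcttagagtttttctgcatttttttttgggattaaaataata
CG18549 (plus strand, chr3R:12449124-12449224): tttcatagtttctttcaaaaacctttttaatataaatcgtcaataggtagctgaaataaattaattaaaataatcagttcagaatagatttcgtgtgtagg
larp (minus strand, chr3R:28326545-28326645): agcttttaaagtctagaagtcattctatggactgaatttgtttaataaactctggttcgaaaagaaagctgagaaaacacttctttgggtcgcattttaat

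The next windows are shown because they hold the element TATCGATA, bound by Dref and called the DNA replication-related element (DRE), which is in capitals and reads alike on both strands. They belong to modSP, which encodes a protease upstream of the Toll pathway, to kibra, a Hippo pathway regulator, and to RpL10Ab, a protein of the large ribosomal subunit. The windows shown here hold no annotated exon. These are not the strongest peaks with the element: by rank they were number 11, 14 and 17 of those that hold it, at ranks 2394, 2843 and 3247. Stronger ones were at CG1827, Alg3 and eEF1gamma, with ranks of 214, 229 and 488 in the thresholded set.
modSP (minus strand, chr3R:16655754-16655854): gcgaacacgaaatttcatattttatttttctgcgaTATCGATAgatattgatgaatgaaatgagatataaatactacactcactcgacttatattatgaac
kibra (minus strand, chr3R:14724309-14724409): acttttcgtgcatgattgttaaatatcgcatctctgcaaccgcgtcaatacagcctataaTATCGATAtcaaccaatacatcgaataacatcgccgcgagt
RpL10Ab (plus strand, chr3L:11822734-11822834): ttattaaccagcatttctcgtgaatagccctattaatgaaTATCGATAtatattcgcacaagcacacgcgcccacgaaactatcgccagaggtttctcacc
A 30-bp site at eEF1gamma, a subunit of translation elongation factor 1, holds the same element with its centre 37.5 bp upstream of the start.
eEF1gamma (plus strand, chr3R:29220120-29220149): ggcctaggaaaTATCGATAtatcgccgtaa

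The following windows hold GGTCACACT, the core of the sequence bound by M1BP, in capitals and on either strand, at Vha68-2, a subunit of the vacuolar proton pump, at Adsl, adenylosuccinate lyase of purine synthesis, and at muc.
Vha68-2 (plus strand, chr2L:12974131-12974231): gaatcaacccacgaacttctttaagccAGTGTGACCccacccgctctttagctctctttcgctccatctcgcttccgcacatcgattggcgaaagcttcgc
Adsl (minus strand, chr3R:17021123-17021223): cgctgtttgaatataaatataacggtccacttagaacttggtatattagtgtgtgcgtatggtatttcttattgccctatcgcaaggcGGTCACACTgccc
muc (plus strand, chr2L:7426600-7426700): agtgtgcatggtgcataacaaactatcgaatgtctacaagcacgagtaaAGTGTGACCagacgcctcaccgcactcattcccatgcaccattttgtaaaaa
The Runx sequence was searched on both strands as AACCACA, where the first letter may also be G and the fifth letter also G, and is in capitals in the windows of l(3)L1231, of tmod, the actin-capping tropomodulin, and of the cadherin gene Cad96Cb, the 3 strongest peaks that hold it.
l(3)L1231 (minus strand, chr3R:14655270-14655370): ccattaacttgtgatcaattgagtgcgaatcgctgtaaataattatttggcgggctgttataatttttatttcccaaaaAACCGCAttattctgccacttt
tmod (plus strand, chr3R:30570699-30570799): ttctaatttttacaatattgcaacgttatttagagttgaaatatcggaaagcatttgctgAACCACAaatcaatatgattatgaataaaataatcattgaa
Cad96Cb (minus strand, chr3R:25232632-25232732): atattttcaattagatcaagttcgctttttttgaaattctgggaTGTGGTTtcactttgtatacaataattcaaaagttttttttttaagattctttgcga

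Of the genes described further on, the windows of RpL23A, a ribosomal protein, of E23, an ecdysone-induced membrane transporter, and of Hsp27, a small heat shock protein, are shown to set a summit close to a start beside summits farther upstream. Their summits lay 80, 209 and 151 bp upstream.
RpL23A (minus strand, chr3L:1668684-1668784): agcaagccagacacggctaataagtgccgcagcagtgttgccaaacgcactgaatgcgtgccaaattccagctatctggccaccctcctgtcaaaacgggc
E23 (minus strand, chr2L:3354988-3355088): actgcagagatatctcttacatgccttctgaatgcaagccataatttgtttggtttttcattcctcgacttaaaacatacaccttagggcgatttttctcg
Hsp27 (plus strand, chr3L:9383862-9383962): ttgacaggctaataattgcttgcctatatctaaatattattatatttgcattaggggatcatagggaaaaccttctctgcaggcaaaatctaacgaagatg

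The share of upstream peaks was similar in each replicate. Each replicate list was reduced to its 8048 peaks of highest signal, and the rule then kept 1942, 1687 and 1781 of them, a mean share of 22.4% ± 1.60 (SD, n = 3). Replicate 1 had the most and replicate 2 the fewest. In the thresholded set the other classes were 1113 peaks at divergent promoters (13.8%), 492 downstream of one-direction starts (6.11%) and 4617 farther than 500 bp from a start (57.4%). Of the 3431 summits within 500 bp of a start, the 1826 upstream peaks were 53.2%. The lists hold no read counts, so depth is unknown, and the intervals given cover counting error only.

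Peaks were compared by rank within a list, where rank 1 is the highest signal, since the signal scale differs between lists. The upstream peaks had a median rank of 3852 (quartiles 1795 and 5932), against 4054 for all other peaks. Those at divergent promoters had a median rank of 3226, those downstream of starts 4648 and those farther away 4179. The upstream class thus stood between the divergent and the distant peaks.

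In the replicates the median rank of upstream peaks minus that of all others was −77.5, −463 and −254, a mean of −265 ± 193 (SD, n = 3). An exact two-sided sign-flip permutation test over 3 replicates can give no p below 0.25, so no difference here can pass a threshold of 0.05; this one gave p = 0.25. With the promoter window narrowed to 250 bp the thresholded difference of −203 shrank to −47.0. The replicates then averaged −172 ± 273 (SD, n = 3; p = 0.50 by the same exact test) and did not all have the same sign. A replicate was left out by keeping the thresholded peaks with a summit within 100 bp in both other replicates. These better recovered peaks kept their ranks by pooled signal, and the difference was −424, −148 and −344 without replicates 1, 2 and 3. The mean over the remaining replicate lists was −358, −166 and −270. Against divergent peaks the difference was 614, 870 and 445, a mean of 643 ± 214, which puts upstream peaks at weaker ranks in each replicate. Against peaks downstream of starts it averaged −814 ± 253, stronger ranks in each replicate, with p = 0.25 by the same exact test for both.

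The upstream peaks were most frequent among the strongest calls. They made up 35 of the 100 highest peaks and 295 of the 1000 highest (29.5%). Of all upstream peaks 16.2% ranked in the top 1000, against 11.3% of the other peaks. Along the authors' longer list called on pooled replicates, the share of upstream summits was 29.5% in ranks 1 to 1000, 20.7% in ranks 7001 to 8000 and 10.6% in ranks 20001 to 21000. Below the threshold 2764 of 21952 calls (12.6%) were upstream peaks of this kind. The share thus ran from its highest value among the strongest calls to its lowest in the last ranks, where it was 7.20%. Divergent peaks were 17.9% of the first 1000 ranks, 18.2% of the next and 1.5% of the last, while peaks downstream of starts were 5.0% of the first and 9.50% of the last.

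**Figure D1:**
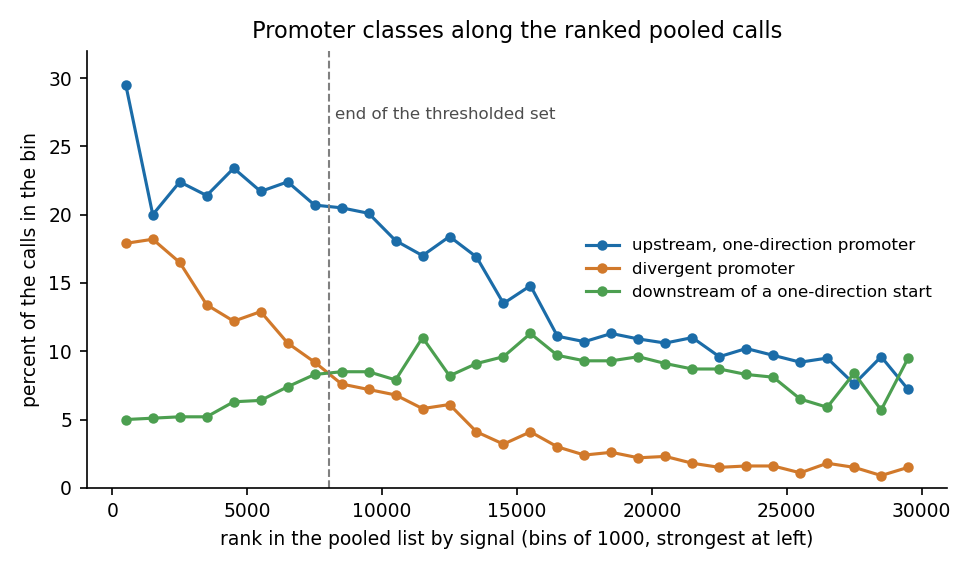
Share of calls (percent, y axis) in each of 3 promoter classes along the pooled list in bins of 1000 ranks (x axis, strongest calls at the left), with a dashed line where the thresholded set ends. Upstream summits were 29.5% of the first bin and 7.20% of the last, divergent summits 17.9% and 1.5%.

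The strongest upstream peak was at CG14100, 90 bp upstream of its start (chr3L:19590385-19590841), and ranked 1 in the thresholded set and 1 in each replicate. The next was at Ugalt, a transporter that carries UDP-galactose into the Golgi, which ranked 2 in the thresholded set and in each replicate, 45 bp upstream. The remaining strong peaks changed places among replicates within a narrow range of ranks. CG1888 ranked 8, 9 and 9 in replicates 1, 2 and 3, CG18549 9, 20 and 12, and larp, which encodes a La-related RNA-binding protein, 10, 18 and 15. mRpL41, a protein of the mitochondrial ribosome, ranked 19, 17 and 23, and Hsp27 ranked 24, 25 and 16.

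Non-coding genes were among them too. The long non-coding RNA gene lncRNA:CR31044 ranked 22, 47 and 17, so replicate 2 stood lower than the others. CG31145 ranked 26, 21 and 28, and ph-p, a subunit of Polycomb repressive complex 1, ranked 21, 16 and 26 with a summit 468 bp upstream of an internal start. The next non-coding peaks were at lncRNA:CR44619, with ranks 30, 28 and 29, and lncRNA:CR44867, with ranks 111, 116 and 122. Apart from lncRNA:CR31044 in replicate 2, each of the 10 strongest kept within the first 30 ranks of every replicate.

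Recovery in the reduced replicate lists was high for strong upstream peaks and low for weak ones, but the reduction itself favours this order. Each list was cut to the size of the thresholded set, and the ranks rest on signal pooled over the same replicates. A peak of weak rank can thus fall past the cut of a replicate, so the fall of recovery with rank is not a separate result. A peak counts as found in a replicate when a summit of its reduced list lies within 100 bp. By that rule all 3 replicates held 1150 of the 1826 upstream peaks (63.0%, with a 95% Wilson interval from 60.7 to 65.2%), against 65.6% of the other peaks and 65.0% of all thresholded peaks. A further 457 (25%) were found in 2 replicates, 210 (11.5%) in 1 and 9 (0.493%) in none. With the full lists of 30000 regions, 1514 (82.9%) were found in all 3 and 0 in none.

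By replicate, 87.8%, 76.8% and 85.9% of upstream peaks were found in replicates 1, 2 and 3, against backgrounds of 85.5%, 81.2% and 86.1% over all thresholded peaks. Replicate 2 held the fewest. The difference from the other peaks was 2.93, −5.72 and −0.236 percentage points, a mean of −1.01 ± 4.37 (SD, n = 3; p = 0.75 by the exact sign-flip permutation test), which is less than its spread. When the ranks were cut into 4 equal groups, 97.4%, 86.2%, 52.6% and 11% of upstream peaks were found in all 3, strongest first, against 97.3%, 89.8%, 64.4% and 12.1% of the other peaks. Among upstream peaks found in both of 2 replicates, Spearman's rho between their ranks was 0.853 (n = 1257), 0.875 (n = 1405) and 0.872 (n = 1245) for the 3 pairs, a description of peaks that share the libraries.

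The 3 strongest peaks found in no reduced replicate list were at Fntb, the beta subunit of farnesyltransferase (rank 6554), eas, ethanolamine kinase (rank 6743), and ND-49, a subunit of respiratory complex I (rank 7332). All lay among the weakest of the 4 rank groups. Fntb also had a stronger upstream peak, at rank 1907, which was found in all 3 replicates. The weaker Fntb summit was met in the full lists at rank 24232 of replicate 2 and 9629 of replicate 3. That of eas was met at ranks 8414 in replicate 1 and 8531 in replicate 3.

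The summits gathered close to the start. Their median distance was −168 bp (quartiles −277 and −85), and it was −143, −184 and −174 bp in replicates 1, 2 and 3, a mean of −167 ± 21.4 bp (SD, n = 3). Of the 1826 summits 547 (30.0%) lay within 100 bp of the start and 59.5% within 200 bp. In the replicates the share within 100 bp was 36.3%, 23.4% and 28.7%, so replicate 1 had more summits near the start and replicate 2 fewer. The count was highest 51 to 100 bp upstream, with 305 summits, and lowest in the outermost 50 bp of the window, with 69.

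**Figure D2:**
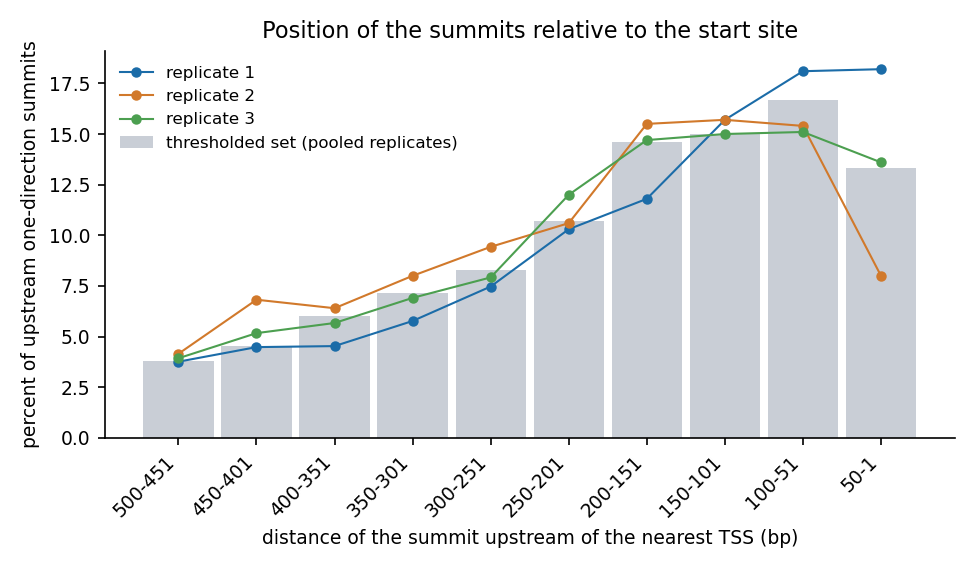
Share of upstream summits (percent, y axis) by distance to the nearest start in 50-bp steps (x axis, bp), with lines for replicates 1 to 3 and bars for the thresholded set. The step next to the start held 18.2%, 8.0% and 13.6% of the summits of replicates 1, 2 and 3, the largest gap between replicates.

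Peaks next to the start had weaker ranks and a lower recovered share than those farther upstream. Since the cut of the replicate lists lowers recovery at weak ranks, these are not separate results. The 242 peaks 1 to 50 bp upstream had a median rank of 5190, and 43.4% were found in all 3 replicates. The 266 peaks 151 to 200 bp upstream had a median rank of 3102, and 70.7% were found in all 3. The 4 rank groups showed the same order, with median distances of −194, −167, −144 and −136 bp, strongest first. For the 1150 peaks found in all 3 replicates the summits of the replicates spanned a median of 37.0 bp, and 25.7% spanned no more than 20 bp, so a position within a 50-bp step is uncertain for many peaks.

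At the outer edge of the rule, the 69 peaks in the last 50 bp inside the window had a median rank of 4323, against 4473 for the 67 peaks in the first 50 bp beyond it, which the rule leaves out. At the inner edge the 242 peaks 1 to 50 bp upstream had 5190, against 5745 for the 145 peaks from the start to 50 bp downstream. The values did not break at either edge, where 66.7% of the inside peaks and 58.2% of the outside ones were found in all 3 replicates at 500 bp, and 43.4% and 36.6% at the start.

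Most of the genes were protein-coding. Their starts took 1660 peaks (90.9%) at 1453 genes, and non-coding RNA genes took 149 (8.16%) at 140 genes. The rest were at 9 tRNA, 4 snoRNA, 3 pseudogene and 1 snRNA starts. Median ranks were close, at 3820 for coding and 4142 for non-coding RNA genes.

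By the Ensembl annotation, 1049 summits (57.4%) were intergenic, 422 (23.1%) lay in an intron of the gene whose start they preceded, and 186 (10.2%) in an intron of another gene. A further 95 (5.20%) lay in an untranslated or non-coding exon of another gene and 67 (3.67%) in one of the same gene. The first start of the gene was the nearest for 1272 peaks (69.7%, median distance −150 bp), and an internal start for 554 (30.3%, median −214 bp). The label held for most of the set: a start of a non-coding gene on the opposite strand lay within 500 bp of 53 summits (2.90%). An opposite protein-coding start lay upstream within 2 kb of 461 (25.2%), and the median distance of those summits was −124 bp.

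Most genes had a single upstream peak. One such peak was counted at 1421 genes, 2 at 169, 3 at 15, 4 at 3 and 5 at 2. The most were at Rtnl1, a reticulon that shapes the endoplasmic reticulum, with 5, SNF4Agamma, the gamma subunit of the AMP-activated kinase, with 5. The genes with 4 were dnc, the cAMP phosphodiesterase dunce, Moe, which links actin to the membrane, and Ptpmeg2, a tyrosine phosphatase. At Rtnl1 the 5 peaks ranked 65, 657, 917, 3054 and 5212, and at SNF4Agamma 1099, 3215, 3943, 7842 and 7886. Each of these genes has several annotated starts, and each start adds a window in which a peak can fall. Among genes with 1 start 6.69% had an upstream peak (685 of 10246), among those with 2 starts 14.7%, with 3 28.9% and with 4 or more 43.2%. Genes with an upstream peak spanned a median of 5273 bp and had 2.08 starts on average, against 2018 bp and 1.33 starts for those without.

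By chromosome, 9.82% of the genes of 2L, 9.75% of 2R, 10.5% of 3L, 9.88% of 3R and 12.5% of X had an upstream peak. On the small chromosome 4 it was 14 of 80 genes (17.5%; replicates 19.2% ± 5.05, SD, n = 3). Upstream peaks were also 51.9% of the 27 thresholded peaks there. The spread on chromosome 4 was wide beside 12.3% ± 0.684 on X.

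The share of genes with an upstream peak varied among gene groups. Over all 13968 protein-coding genes it was 1453 (10.4%), with a mean of 10.3% ± 0.807 in the replicates (SD, n = 3). The cytoplasmic ribosomal proteins, the largest group above that background, had 30 of 92 (32.6%, 95% Wilson interval 23.9 to 42.7%). The replicates had 28, 28 and 29 of these genes, a mean of 30.8% ± 0.628. The difference from all genes was 20.5 ± 1.14 percentage points (p = 0.25 by the exact sign-flip permutation test, the smallest it can give), larger than the spread between replicates. With the promoter window at 250 bp the share was 46.7%, and at 1000 bp it was 21.7%. A further 30 of the 92 genes (32.6%) had no upstream peak but a peak at a divergent promoter, against 7.50% of all protein-coding genes.

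The ribosomal protein peaks were strong and close to the start. The best peaks of these genes had a median rank of 2294, against 3608 over all genes with an upstream peak. RpL23A ranked 475, 763 and 922 in replicates 1, 2 and 3, RpL24 547, 1643 and 822, and RpS28b 689, 1156 and 1067. All 3 ranked highest in replicate 1. Their summits lay 80, 26 and 43 bp upstream. Over the 30 peaks the median distance was −48.0 bp, against −170 bp for the other upstream peaks, and the replicates had −50, −63.0 and −46.5 bp, which differ from the other peaks by 117 ± 18.1 bp (SD, n = 3; p = 0.25, exact sign-flip permutation).

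Translation factors were alike in place. Of 35, 9 had an upstream peak (25.7%; replicates 27.6% ± 8.25), with a median distance of −52.0 bp. eEF1gamma ranked 284, 716 and 624, with its summit 28 bp upstream. eIF3c, a subunit of initiation factor 3, ranked 918, 799 and 894, and eEF2, the elongation factor that drives translocation, ranked 1324, 2842 and 1421. eEF2 thus stood lowest in replicate 2.

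Mitochondrial ribosomal proteins stood on the other side. Only mRpL41 of 73 genes had an upstream peak (1.37%; replicates 3.20% ± 0.791), while 15 others (20.5%) had a peak at a divergent promoter, against 7.50% of all protein-coding genes. Subunits of ATP synthase and the respiratory chain had 3 of 33 (9.09%; replicates 10.1% ± 4.63): blw, the alpha subunit of ATP synthase, ranked 1109, 665 and 880, and UQCR-C2 of complex III and ND-20 of complex I ranked 5531 and 7135 in the thresholded set. The proteasome had 6 of 31 (19.4%; replicates 16.1% ± 3.23), with Rpn11, the deubiquitinase of its lid, at ranks 3010, 3101 and 2613 and Rpn12 at 2744, 5088 and 4727. Each of these shares had an interval that held the background of 10.4% except that of the mitochondrial ribosomal proteins, whose upper bound was 7.36%. The share with a divergent peak was not particular to the mitochondrial ribosomal proteins. It was 21.2% for ATP synthase and the respiratory chain and 22.6% for the proteasome, but 3.85% for ecdysone-response genes.

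Ecdysone is the steroid whose pulse drives the change from larva to pupa. Of 26 ecdysone-response genes 9 had an upstream peak (34.6%), and the replicates had 11, 10 and 11 (41% ± 2.22), or 30.7 ± 1.74 percentage points above all genes (p = 0.25, exact sign-flip permutation). E23 ranked 184, 231 and 184, Ldh, lactate dehydrogenase, 231, 357 and 233, and hid, an inducer of cell death, 398, 229 and 263. Their summits lay 209, 228 and 331 bp upstream. Over the 15 peaks of this group the median distance was −279 bp, and the replicates differed from the other upstream peaks by −124 ± 8.78 bp (SD, n = 3; p = 0.25, exact sign-flip permutation).

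Heat shock genes had 7 of 23 (30.4%; replicates 29.0% ± 2.51). Hsp26, a small heat shock protein like Hsp27, ranked 395, 737 and 395, and Hsp83, the fly Hsp90, ranked 317, 1738 and 593, so replicate 2 stood lower for both. Their median distance was −124 bp. Hsp26 and Hsp27 lie in the same gene cluster on 3L.

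The Notch pathway, which decides between cell fates by contact, had 8 of 21 (38.1%) in the thresholded set but 27% ± 5.50 in the replicates. E(spl)m3-HLH, a target of Notch, ranked 796, 347 and 514, neur, a ubiquitin ligase that acts on Notch ligands, 1583, 1484 and 1031, and numb, an inhibitor of Notch, 2301, 2648 and 1016. The other 5 were Su(H), mam, Ser, N and fng, with ranks between 4624 and 7261 in the thresholded set, and none of these 5 was found in all 3 replicates. Cell cycle and DNA replication genes had 9 of 33 (27.3%) and 19.2% ± 4.63 in the replicates. Dp, the partner of E2f1, ranked 423, 363 and 460, and E2f1 itself 5802, 5174 and 2767, while CycE ranked 3445 and 2203 in replicates 1 and 2 and was not found in replicate 3.

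Genes known from the eye had 5 of 19 (26.3%; replicates 22.8% ± 11), a spread that leaves the share uncertain. The first peak at spi, the ligand of the Egf receptor, ranked 331, 166 and 228, and the next ranked 472, 422 and 415, 188 and 321 bp upstream of internal starts. aop, an Ets-domain repressor, was found in replicate 1 alone, at rank 2252. Of 18 genes of the Runx family, its cofactors and reported lz targets, 3 had an upstream peak (16.7%) in the thresholded set and 3 in each replicate. They were gro, the Groucho corepressor, with ranks of 169, 152 and 307 for its stronger peak, aos, an inhibitor of the Egf receptor, with 1588, 1046 and 806, and peb, which ranked 3103 in the thresholded set.

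Of the other groups, general transcription and RNA polymerase II had 2 of 27 (7.41%), Taf4 of TFIID with ranks of 551, 1012 and 925 and the polymerase subunit Polr2F with 1431, 1616 and 1769. Insulator and promoter-binding proteins had 2 of 20, row with 733, 318 and 750 for its stronger peak and BEAF-32, a boundary element factor, with 3840, 1125 and 1962. Hox genes had 1 of 8 (12.5%), Dfd, found in replicate 3 alone. No upstream peak was counted at 27 spliceosome and mRNA processing genes (upper 95% Wilson bound 12.5%), at 22 larval cuticle and glue genes (14.9%) or at 119 odorant and gustatory receptors (3.13%), in the thresholded set or in any replicate. Of these 3 groups the upper bound was below the background of 10.4% for the receptors alone. The spliceosome and mRNA processing genes did not lack peaks: 6 of them (22.2%) had a peak at a divergent promoter, against 7.50% of all protein-coding genes. The cuticle and glue genes and the receptors had 0 such peaks.

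**Figure D3:**
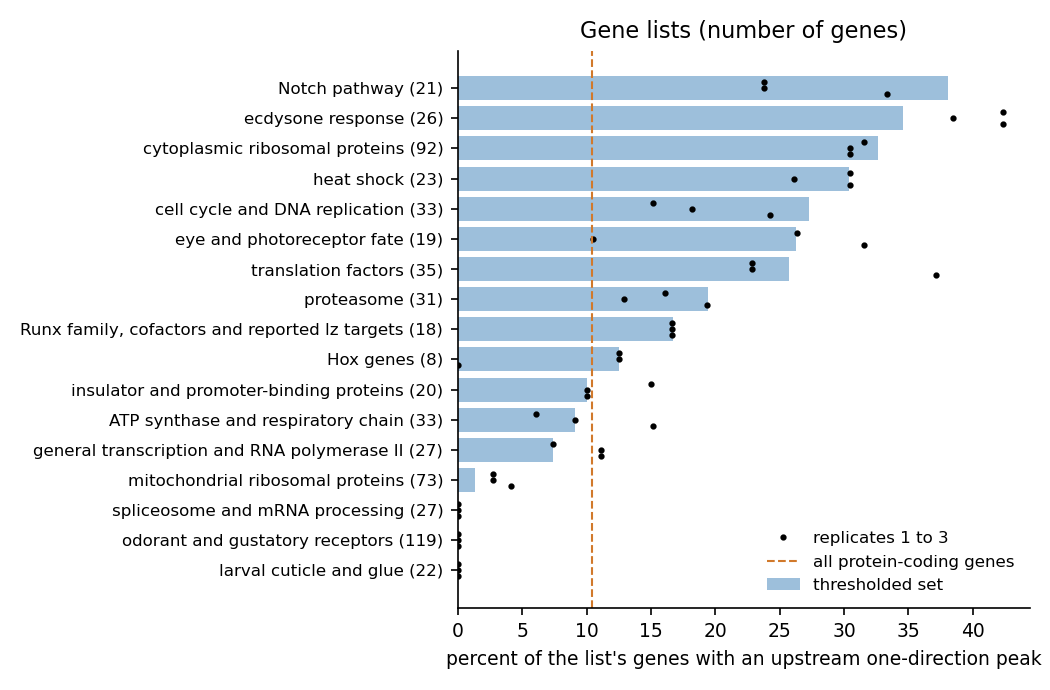
Percent of a list's genes with an upstream peak (x axis) in each of 17 gene lists, with bars for the thresholded set, points for replicates 1 to 3 and a dashed line at the 10.4% of all protein-coding genes. Ribosomal proteins (32.6%) and ecdysone-response genes (34.6%) stood above that line in each replicate, and mitochondrial ribosomal proteins (1.37%) below it.

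The summits were poorer in G and C than the DNA upstream of them. The windows of 50 bp to either side of the summit had 35.4% G and C, against 40.6% in flanks 500 bp farther upstream, a difference of −5.18 percentage points. In the replicates the summits had 37.2%, 34.0% and 35.6%, against 40.4%, 40.3% and 40.6% in the flanks, and the difference averaged −4.80 ± 1.54 (SD, n = 3; p = 0.25, exact sign-flip permutation). The groups did not overlap. Over all other thresholded peaks the same difference was larger, at −10.8 percentage points. At the upstream peaks 1282 summit windows (70.2%) were below 40% G and C, a share not counted for the other peaks. Windows placed at the same distances from all protein-coding starts, a background added after the data were seen, had 39.4%.

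The difference depended on the side of the flank. G and C was lowest just upstream of the summit, 33.3% at −60 bp, and higher on the side of the gene, so a flank 500 bp downstream gave −10.6 percentage points. The other classes had 33.7% at divergent summits, 38.8% downstream of starts and 32.5% at summits farther from a start. Their differences from flanks 500 bp upstream were −15.5, −0.859 and −10.8 percentage points. AT-rich 6-letter words were thus frequent: AAATAT was in 32.4% of upstream summit windows, against 20.2% of flanks and 32.5% of the other thresholded summits. GGAGGA was in 0.931% of the upstream summits, against 4.55% of their flanks.

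**Figure D4:**
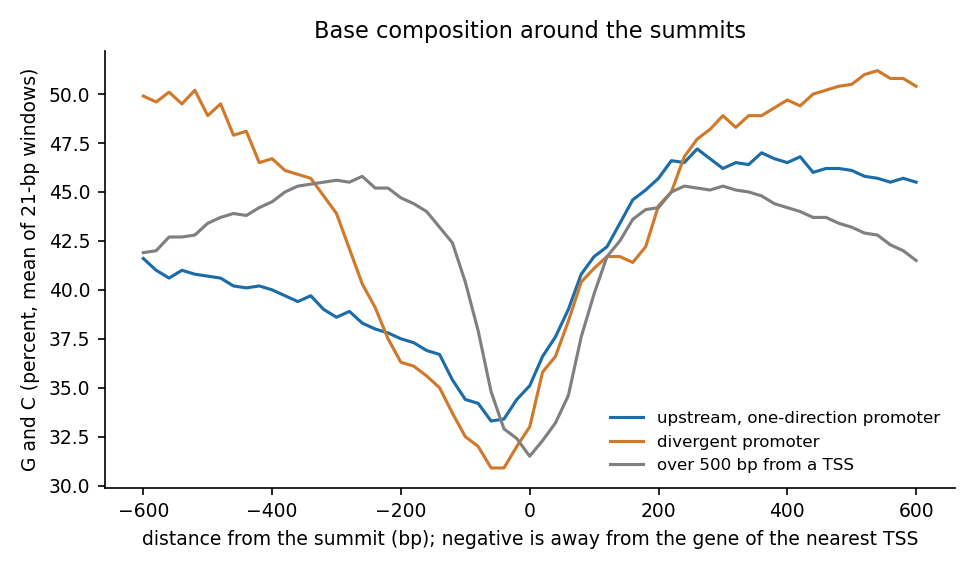
Mean G and C (percent, y axis) in 21-bp windows by distance from the summit (x axis, bp, negative away from the gene) at upstream peaks, at divergent promoters and at peaks over 500 bp from a start. Upstream peaks had their lowest value, 33.3%, at −60 bp and were richer in G and C toward the gene.

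The DRE and the M1BP sequence had higher shares at the summits than in the flanks, and shares closer to those at all starts. The DRE was in 49 of the 1826 windows (2.68%), against 7 of the flanks (0.383%), 1.29% of the other thresholded summits and 1.60% of all thresholded summits. Among those other summits, the ones at divergent promoters held it in 5.39%, a higher share than the upstream summits. In the replicates it was in 4.07%, 2.85% and 2.64% of upstream summits, against 0.412%, 0.593% and 0.393% of flanks, a difference of 2.72 ± 0.812 percentage points (SD, n = 3; p = 0.25, exact sign-flip permutation). The groups did not overlap. Windows at the same distances from all protein-coding starts held it in 2.26%, and upstream summits of the replicates differed from them by 0.938 ± 0.583 percentage points. In the thresholded set the difference from the flanks was 2.30 percentage points, and it was 4.6 with windows of 100 bp to either side and 1.42 with 25 bp. Among the thresholded peaks found in both replicates 2 and 3 it was 1.53.

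The element lay where it lies at starts in general. Over all protein-coding starts 5.55% of windows 1 to 50 bp upstream held it, against 0.729% of those in the outermost 50 bp of the window. The 49 upstream peaks that held it had a median distance of −48.0 bp, against −172 bp without it. They ranked lower, at a median of 5177 against 3830, and 49% were found in all 3 replicates against 63.4%. Among them CG1827 ranked 223, 279 and 186, and Alg3, a glycosyltransferase of N-glycan synthesis, ranked 136, 338 and 357.

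The M1BP sequence was in 21 windows (1.15%), against 2 flanks (0.110%), 0.595% of the other summits and a background of 0.721% over all thresholded summits. Divergent summits held it in 1.71%. Windows at all starts held it in 1.12%, and the replicates differed from them by −0.0744 ± 0.230 percentage points, less than the spread. The highest ranked was at Ube4B, a ubiquitin ligase, with ranks of 3229, 1692 and 2390, followed by CG30414 with 2415, 2557 and 3017 and Vha68-2 with 2362, 6098 and 2763. It was in 0, 7, 8 and 6 upstream peaks of the 4 rank groups, strongest first.

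CGATAT, a sequence read by BEAF-32, was in 137 windows (7.5%), against 4.05% of flanks, 5.11% of other summits, 5.65% of all thresholded summits and 5.94% of windows at all starts. Its share was 10.3% at divergent summits. Of the 137, 30 also held the DRE, with which CGATAT can overlap. By replicate it was in 8.75%, 8.36% and 7.02% of summits, against 4.33%, 3.85% and 4.32% of flanks. The 6-letter words with the largest ratio, chosen after the data were seen, were near the same elements: CGATAG was in 8.49% of summits, against 3.01% of flanks and 3.95% of other summits, and ACACTG in 9.75%, against 3.61% and 6.43%.

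The Runx sequence was not more frequent at the upstream summits. It was in 45 windows (2.46%), against 67 flanks (3.67%), 2.75% of the other summits, a background of 2.68% over all thresholded summits and 3.68% of windows at all starts. In the replicates it was in 2.83%, 2.25% and 2.70% of summits, against 3.66%, 3.38% and 3.59% of flanks, a difference of −0.950 ± 0.158 percentage points (SD, n = 3; p = 0.25, exact sign-flip permutation). In the thresholded set the difference was −1.20, and it ran from −0.602 with windows of 25 bp to either side to −2.14 with flanks 1000 bp upstream. The flanks were richer in G and C, and the part of base composition in this difference was not tested. l(3)L1231 ranked 399, 583 and 496, tmod 508, 650 and 488, and Cad96Cb 650, 547 and 586.

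GAGAGAG, read by GAGA factor, was in 2.08% of upstream summits, against 1.92% of flanks, 0.771% of other summits, 1.07% of all thresholded summits and 2.78% of windows at all starts, so it had a higher share than at other summits and a lower one than at starts in general. By replicate it differed from the flanks by 0.124 ± 0.621 percentage points (SD, n = 3), less than the spread. TATAAA was in 20.5%, against 15.2% of flanks, 21.7% of other summits and a background of 21.5%. The E-box CAGCTG was in 4.0%, against 4.05% of flanks and a background of 3.03%, and CTTTTC, part of the TCT start element known from ribosomal protein genes, in 9.04%, against 10.2% and 9.65%. The GATA sequence, searched as those letters preceded by A or T and followed by A or G, was in 20.9%, against 18.1% of flanks and a background of 22.2%. A match is only a run of letters in the window and does not show that the factor binds there.

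**Figure D5:**
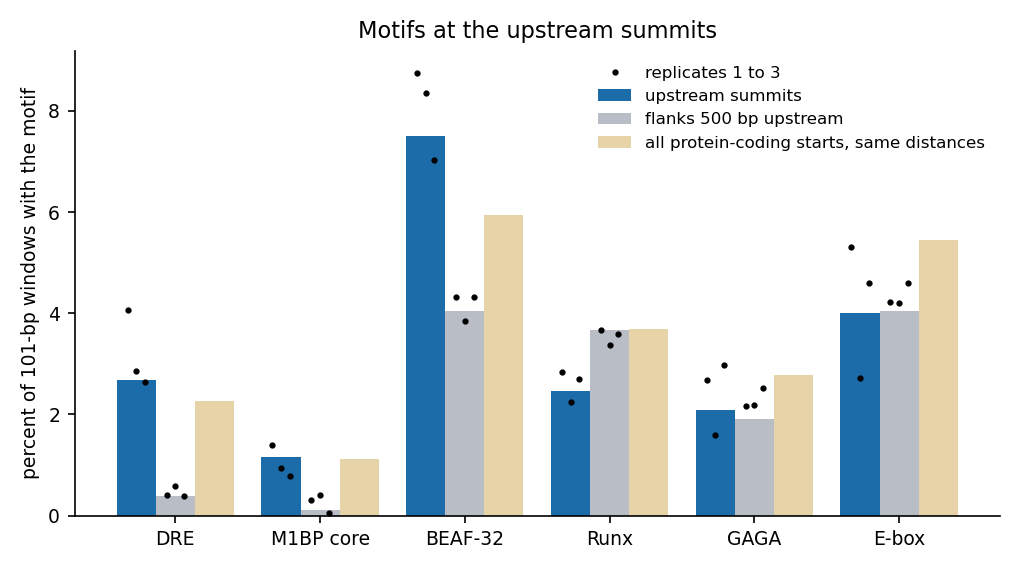
Percent of windows of 50 bp to either side (y axis) that hold each of 6 motifs at upstream summits, in flanks 500 bp upstream and at all protein-coding starts at the same distances, with points for replicates 1 to 3 on the summit and flank bars. The DRE was in 2.68% of upstream summits and 0.383% of flanks, and the Runx sequence in 2.46% and 3.67%.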

How the data were processed

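lz-GFP ChIP-seq peak lists of 3 replicates and of the pooled replicates were analysed on dm6; the dm3 lists were not used. The signal value per peak and the −log10 q-value are as deposited by the authors, whose thresholded set rests on the irreproducible discovery rate, per the names of the deposited files. The −log10 q-value held a single value in the upstream peaks, so peaks were ranked by signal within a list. The summit is the deposited offset within each peak. Read depth, the peak caller and the aligner: not given in the sources used here.

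Starts came from the Ensembl 115 gene models without transposable elements, and sequences from the RefSeq release 6 genome. Each replicate list was reduced to its 8048 highest peaks, and a peak was found when a summit lay within 100 bp. Either strand was searched for motifs, 50 bp to each side of the summits and of points 500 bp farther upstream. The work ran in Python 3.11.15 with pandas 2.3.3, numpy 2.4.6, matplotlib 3.10.9 for figures and scipy 1.17.1 for intervals, and the procedures were tested on simulated data. Intervals are 95% Wilson intervals. Differences were tested with exact two-sided sign-flip permutation over the replicates. When all 3 replicates have the same sign, p is 0.25 whatever their spread, so the spread is given as the SD. No p-value was adjusted, since none can be below 0.25.

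The peaks and the 17 gene lists, written by hand from general knowledge, were chosen with earlier results of these data known. A synonym had to be used for 12 symbols of the lists, and 4 repeated or unmatched symbols were left out. Named genes were those of the 10 strongest upstream peaks, up to 3 strongest per list, the 3 strongest at non-coding genes, the 3 with the most peaks (a tie going to the lower coordinate), the 3 strongest with each of the DRE, M1BP and Runx sequences, and the 3 strongest found in no replicate. The other genes named from the Notch and Runx lists, Moe and Ptpmeg2 were chosen after their values were seen. The 6-letter words and the windows at all starts were also added after the data were seen. Alternatives changed the promoter window, the starts used, how many peaks entered, the distance for matching, the size and place of the sequence windows, and left out each replicate.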

Additional observations from a re-analysis of the deposited data

How the results depend on the processing

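Of 73 alternative values, judged in the thresholded set, 0 reversed. Of the values with no test (the share of upstream summits, the median distance and the share found in all 3 replicates), 16 moved by less than 1 SD over the replicates and 7 by more. All 50 alternatives of the tested differences kept their direction in the thresholded set. Of them, 13 differed from the value in the report by over 1.5 times, with the causes not tested. In the replicates the direction was not always kept: with the 250 bp window their rank differences did not all have the same sign. A promoter window of 250 bp gave a share of upstream summits of 20.3% and a median distance of −109 bp, and a window of 1000 bp gave 24.8% and −218 bp; the window bounds the distance by construction. The share found in all 3 replicates was 72.0% in the stronger part of the thresholded set and 49.6% with a matching distance of 50 bp. A replicate was left out by keeping the thresholded peaks found in both others. That gave shares of upstream summits from 21.5% to 23.1% and median distances from −187 to −169 bp. Of all upstream peaks, 68.2% to 76.9% were found in both other replicates, the highest without replicate 2. The ribosomal protein share ran from 21.7% with the 1000 bp window to 46.7% with the 250 bp window. By the rule, a narrower window can add a gene only through a peak that counts as divergent at 500 bp. A wider window can turn upstream peaks into divergent ones. The peaks that changed class were not counted. The DRE difference was 1.42 percentage points with windows of 25 bp to either side and 4.6 with 100 bp, against 2.30; it was 1.53 without replicate 1. The M1BP difference was 0.548 and 1.70 with the same windows, against 1.04. The G and C difference was −10.6 with a downstream flank. Samples could not be paired between conditions because they form 1 group, while the sign-flip tests paired values within each replicate. The lists hold no counts, so the depth behind a weak peak is unknown, and with 3 replicates no test can pass 0.05.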
